A study of Mus musculus with 24 samples.

Results

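Glutathione transferases are the enzymes that join glutathione to reactive molecules, and 10 of their genes were followed here in mouse kidney: Gsta2, Gsta3 and Gsta4 of the alpha class, Gstm1 and Gstm5 of the mu class, Gstp1 of the pi class, Gstt1 and Gstt2 of the theta class, Gstk1 of the kappa class and Gsto1 of the omega class. They are 10 of the 22911 gene symbols named on the array, and they were chosen by measured values of these arrays: they were gathered around Gsta2, whose level was strongly raised in diabetic kidneys. The comparison of DKD with sham kidneys is therefore the one that chose them, and its values for them are a description from which no test result is read. The comparison of DKD+enarodustat with sham kidneys shares the sham arrays and is treated in the same way. The kidneys came from 24 male mice of the outbred strain Crl:CD1(ICR), 1 array per mouse. The group called DKD+enarodustat (n = 9) had alloxan, 90 mg/kg by vein, and then feed holding 0.01% enarodustat by weight. The group called DKD, for diabetic kidney disease (n = 9), had the same alloxan and normal feed. The sham group (n = 6) had vehicle by vein and normal feed. The injection came 3 days before the mice were grouped, and the kidneys were collected on day 16 after grouping, so the groups show an early diabetic state. Alloxan destroys the insulin-producing beta cells, which makes it a model of insulin deficiency, and enarodustat blocks prolyl hydroxylation of hypoxia-inducible factor (HIF), which otherwise leads to its breakdown. The diabetic mice were chosen so that their 2 groups matched in blood glucose and body weight, and the age of the mice is not stated in the labels. Whole renal tissue was used, so fewer cells of a type and less RNA per cell cannot be told apart.

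Levels are log2 spot signals with the 75th percentile of the same array taken off, so 0 is the level of that percentile and a step of 1 is a doubling of signal. They rank samples for 1 probe and not genes against each other, since probes differ in brightness. Differences between groups are log2 differences ± SE from 1 limma fit of all arrays, and a gene passed the test where its p, adjusted by Benjamini-Hochberg over 17736 tested genes, was under 0.05. The 75th percentile lay at signals of 187 to 388, arrays of 1 group correlated at 0.964 to 0.991 across genes, and precision is limited by how many arrays there are. Each of the 3 slides held 3 DKD+enarodustat, 3 DKD and 2 sham arrays. All 9 DKD+enarodustat arrays lay in row 2 of a slide, all 6 sham arrays in row 1, and the DKD arrays in both (6 in row 1 and 3 in row 2). All 13 markers of the proximal tubule, the segment that makes up most of the cortex, were well above background on every array, as were the 5 podocyte markers and the 7 collecting duct markers. The perirenal fat markers were mixed. Adipoq, the defining fat hormone, was well above background on 0 of 24 arrays, Plin1 on 2, Retn on 5, Cfd on 6, Cidec on 21 and Lep on 24. Of the adrenal cortex markers, Star, Cyp21a1 and Hsd3b1 were well above background on 24 arrays and Mc2r on 16. Cyp11b1 was so on 2, and Cyp11a1 and Cyp11b2 on 0. Any part of fat or adrenal tissue in the samples was not tested.

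Glutathione transferases catalyse the attack of the glutathione thiol on electrophiles such as epoxides, quinones and the aldehydes of lipid peroxidation. The cytosolic enzymes work as dimers and fall into classes by sequence, while the kappa enzyme sits in mitochondria and peroxisomes and the microsomal enzymes form a separate membrane family. Conjugates leave the cell through ATP-driven pumps and are trimmed by gamma-glutamyl transferase and dipeptidases to cysteine conjugates, which are N-acetylated to mercapturates and excreted in urine. The proximal tubule is rich in alpha-class enzymes, whose release into urine is used as a sign of tubular damage. Many transferase genes respond to the antioxidant transcription factor NRF2 through antioxidant response elements.

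Promoters are shown for 2 reasons. The first is that Gm10639, a neighbour of Gsta2 in the alpha-class cluster on chromosome 9, followed Gsta2 from kidney to kidney more closely than any other gene compared. The second is that Gsta3 and Gstm5 are the members whose promoters hold the antioxidant response element core. Each sequence runs 5′ to 3′ over 300 bases, 250 before the annotated start of the gene and 50 from it, and comes from RefSeq on build GRCm38.p6. Of the 10 members, 8 have an entry in that table, and Gsta4 and Gstt2 are named only. In the first 3 sequences the capitals mark the longest run of letters shared by Gsta2, Gm10639 and Gsta1, which is 24 bases long.
Gsta2 (chr9:78347096-78347395, minus strand): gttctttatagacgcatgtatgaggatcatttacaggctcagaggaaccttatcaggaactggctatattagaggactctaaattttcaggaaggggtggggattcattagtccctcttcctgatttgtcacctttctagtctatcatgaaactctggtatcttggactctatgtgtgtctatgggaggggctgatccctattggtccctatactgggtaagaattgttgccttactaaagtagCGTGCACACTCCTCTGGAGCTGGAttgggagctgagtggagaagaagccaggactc
Gm10639 (chr9:78289678-78289977, plus strand): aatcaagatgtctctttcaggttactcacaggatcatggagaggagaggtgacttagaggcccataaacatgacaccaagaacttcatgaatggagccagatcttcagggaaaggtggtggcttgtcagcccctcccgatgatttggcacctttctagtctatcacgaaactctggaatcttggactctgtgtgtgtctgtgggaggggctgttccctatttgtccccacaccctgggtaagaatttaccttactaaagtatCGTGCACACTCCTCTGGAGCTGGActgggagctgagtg
Gsta1 (chr9:78230419-78230718, plus strand): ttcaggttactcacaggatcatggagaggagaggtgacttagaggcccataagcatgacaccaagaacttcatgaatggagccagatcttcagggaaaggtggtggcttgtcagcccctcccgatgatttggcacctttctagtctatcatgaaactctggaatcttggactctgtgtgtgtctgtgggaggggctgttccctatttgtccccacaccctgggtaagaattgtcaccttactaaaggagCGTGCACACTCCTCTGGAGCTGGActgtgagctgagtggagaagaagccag
In local alignments the Gsta2 promoter was 85.4% identical to that of Gm10639 over 205 columns and 86.7% identical to that of Gsta1 over 218 columns. The Gm10639 and Gsta1 promoters were 97.6% identical over 287 columns. The array has 1 probe for Gsta2, 1 for Gm10639 and 0 for Gsta1. The probes' own sequences were not used here, and no transcript sequences were compared. Binding of RNA from one of these genes to the probe of another therefore cannot be told apart from expression of the named gene. The values of Gsta2 and Gm10639 are uncertain in that sense.

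In the next sequences the capitals mark the antioxidant response element core, searched as TGACNNNGC on both strands.
Gsta3 (chr1:21240335-21240634, plus strand): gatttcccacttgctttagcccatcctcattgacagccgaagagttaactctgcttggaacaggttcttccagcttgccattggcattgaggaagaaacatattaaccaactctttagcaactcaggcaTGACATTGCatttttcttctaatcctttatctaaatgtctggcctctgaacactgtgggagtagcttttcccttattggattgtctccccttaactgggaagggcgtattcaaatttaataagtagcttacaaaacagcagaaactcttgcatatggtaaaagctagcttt
Gstm5 (chr3:107895604-107895903, plus strand): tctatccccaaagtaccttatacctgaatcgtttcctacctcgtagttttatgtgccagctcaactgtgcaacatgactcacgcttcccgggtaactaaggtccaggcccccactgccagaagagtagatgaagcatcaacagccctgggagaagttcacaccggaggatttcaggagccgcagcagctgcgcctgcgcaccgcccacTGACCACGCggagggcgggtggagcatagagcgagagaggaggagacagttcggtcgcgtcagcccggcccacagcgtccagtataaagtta
The core begins at position −121 from the start in Gsta3 and at −42 in Gstm5, and 12.4% of 32851 promoters of this length hold it. The hypoxia response element core, searched as ACGTG or GCGTG on both strands, is held by 43.8% of these promoters and by 5 of the 8 member promoters, those of Gsta2, Gstm1, Gstm5, Gstp1 and Gstt1. In Gstm5 a match to it at −38 lies inside the antioxidant core. The peroxisome proliferator motif AGGTCA is held by 16.3% of promoters and here by those of Gstm1 and Gstk1, and the HNF1 motif GTTAAT by 7.1% of promoters and here by that of Gsta3. A match is a string of letters and not a measured binding site.

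Gsta2, an alpha-class enzyme that reduces lipid hydroperoxides and conjugates electrophiles, was the member whose level differed most between groups. Its level was 1.38 at the lowest, 2.76 at the median and 4.34 at the highest in DKD+enarodustat kidneys, 2.01, 2.94 and 5.26 in DKD kidneys, and −0.07, 1.29 and 1.87 in sham kidneys. The means were 2.87 ± 0.93 (SD, n = 9) with the drug, 3.70 ± 1.27 (SD, n = 9) in DKD and 1.11 ± 0.67 (SD, n = 6) in sham. All 9 DKD kidneys lay above all 6 sham kidneys, as did 8 of 9 DKD+enarodustat kidneys, whereas the ranges of the DKD+enarodustat and DKD kidneys overlapped widely. The DKD kidneys fell into a bunch of 4 (numbers 2, 3, 7 and 9) between 4.51 and 5.26 and a bunch of 5 between 2.01 and 2.94, with no kidney in the gap. Against sham, DKD was higher by 2.59 ± 0.51, a 6.02-fold difference, the difference that chose the gene. DKD+enarodustat was higher than sham by 1.76 ± 0.51, a 3.38-fold difference that shares the sham arrays. Against DKD, DKD+enarodustat was lower by −0.83 ± 0.46 on the log2 scale, which did not pass the test (limma, adjusted p = 0.55). The 95% interval of −1.78 to 0.11 spans a fold of 0.292 to 1.08, so the data leave both a marked fall and no fall possible. Within slides 1, 2 and 3 the DKD+enarodustat minus DKD difference was −1.36, −0.19 and −0.94, and over row 2 alone (9 against 3 arrays) it was −1.47. The spread of Gsta2 was itself wide: its SD lay at percentile 96.4 of all tested genes in DKD+enarodustat kidneys, 98.9 in DKD kidneys and 92.4 in sham kidneys.

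**Figure D1:**
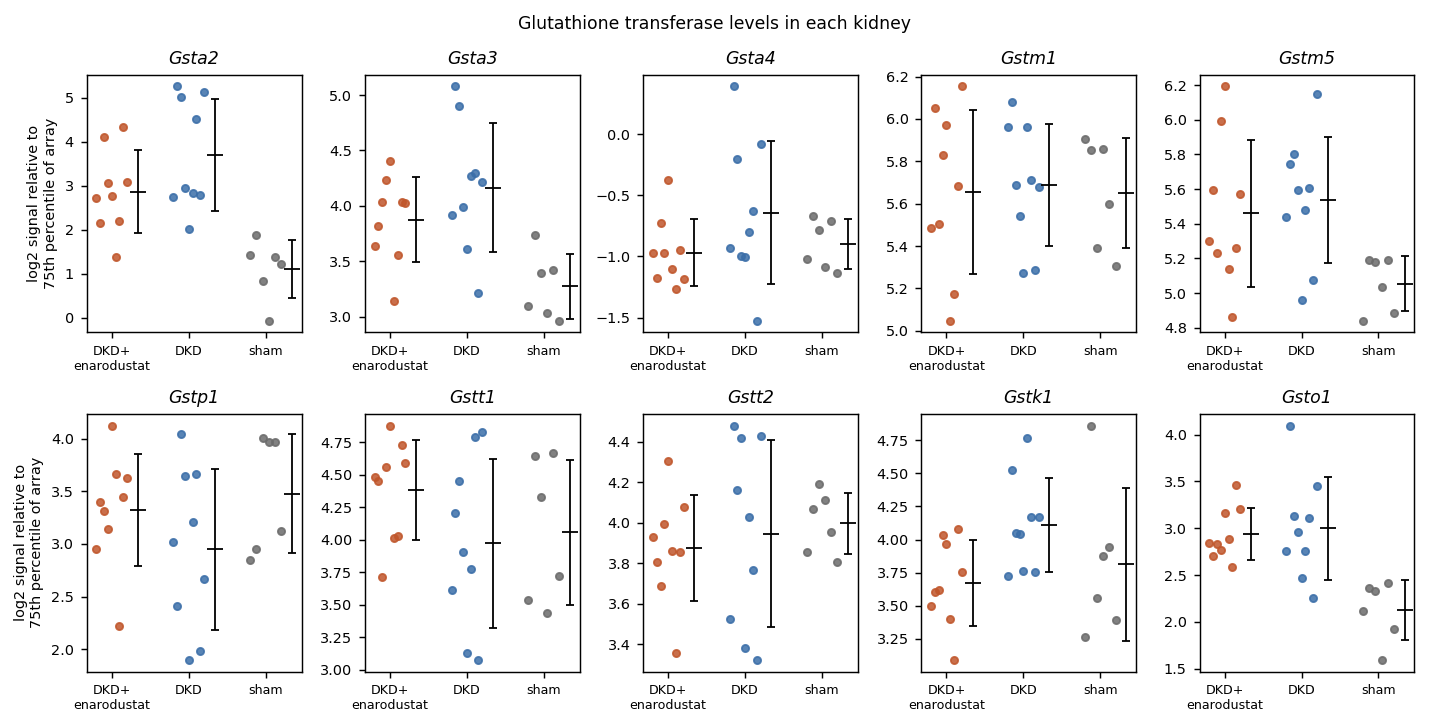
Level of each of the 10 glutathione transferases in each kidney, as log2 signal with the 75th percentile of its array taken off (y axis, its own scale in each panel), for DKD+enarodustat, DKD and sham kidneys (x axis). Points are kidneys in the order of their numbers, and the bar beside each group is the mean with 1 SD. Gsta2 separates all DKD from all sham kidneys, and the DKD+enarodustat and DKD points overlap in every panel.

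Gm10639 is annotated as a predicted gene beside Gsta2, and its level tracked that of Gsta2 almost exactly. It averaged 4.31 ± 0.88 in DKD+enarodustat, 5.15 ± 1.21 in DKD and 2.58 ± 0.57 in sham kidneys (SD, n = 9, 9 and 6). Pearson's r with Gsta2 over the 24 arrays was 0.997, and 0.995 once each group's mean was taken off. Its DKD+enarodustat minus DKD difference, −0.84 ± 0.43, did not pass the test (limma, adjusted p = 0.50). Gm10639 was picked by its likeness to Gsta2 on these same arrays, so this is not a result separate from that of Gsta2. Among 15109 genes measured on every array, those most alike in level also included Ugt1a6b, a glucuronosyltransferase (r = 0.925), Gatm, which makes the creatine precursor guanidinoacetate (r = 0.924), and Fbxo21, an F-box protein (r = 0.917). These r values are descriptions over 24 arrays that share the group differences. With group means taken off, those most alike after Gm10639 included Ugt1a6b (0.903), Mgst1 (0.848), a microsomal glutathione transferase, and 4930525G20Rik (0.845).

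Ugt1a6b averaged 7.06 ± 0.18 in DKD+enarodustat, 7.31 ± 0.30 in DKD and 6.86 ± 0.13 in sham kidneys (SD, n = 9, 9 and 6), and its DKD+enarodustat minus DKD difference of −0.25 ± 0.11 did not pass the test (limma, adjusted p = 0.379). Mgst1 averaged 2.56 ± 0.57 in DKD+enarodustat, 2.68 ± 0.78 in DKD and 2.00 ± 0.31 in sham kidneys (SD, n = 9, 9 and 6). Its difference passed the test neither between DKD+enarodustat and DKD (−0.12 ± 0.28, limma, adjusted p = 0.951) nor between DKD and sham (0.68 ± 0.31, limma, adjusted p = 0.170). Ugt1a6b and Mgst1 were also picked by likeness to Gsta2 on these arrays, so their differences are not separate from its own.

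**Figure D2:**
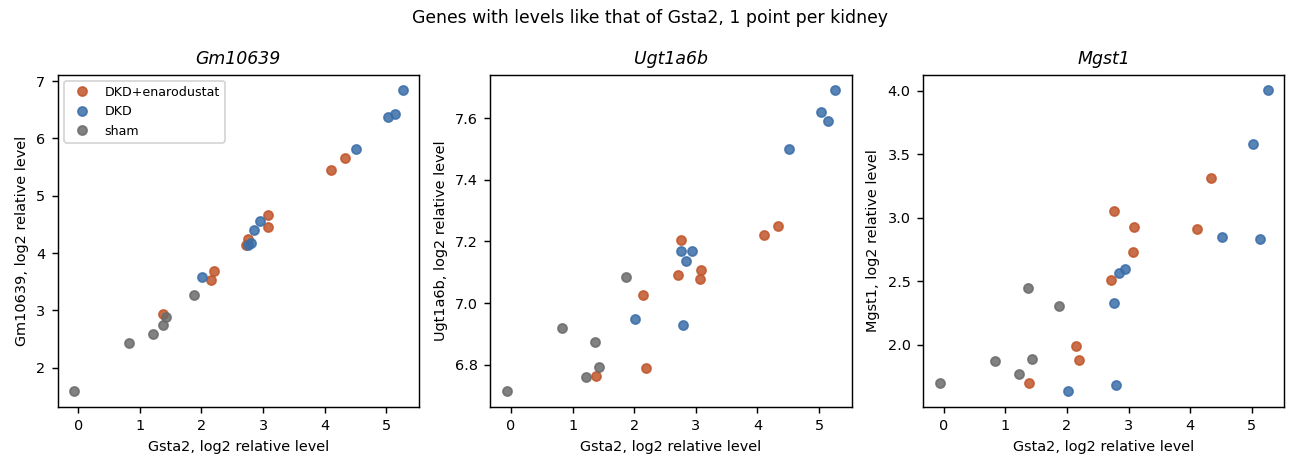
Log2 relative level of Gm10639, Ugt1a6b and Mgst1 (y axes) against that of Gsta2 (x axes), 1 point per kidney, coloured by DKD+enarodustat, DKD and sham. Gm10639 lies along a single line with Gsta2 (r = 0.997 over 24 arrays), Ugt1a6b scatters around one (r = 0.925), and Mgst1 scatters most (r = 0.834).

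Gsta3, the alpha-class enzyme known in the mouse for conjugating the epoxide of aflatoxin, had the pattern of Gsta2 at a smaller size. Its lowest, median and highest levels were 3.14, 4.03 and 4.41 in DKD+enarodustat kidneys, 3.22, 4.21 and 5.08 in DKD kidneys, and 2.96, 3.25 and 3.74 in sham kidneys. DKD kidneys 2 and 3 stood highest, 7 of 9 DKD kidneys lay above every sham kidney, and DKD kidneys 5 and 8 lay within the sham range. DKD was higher than sham by 0.89 ± 0.23 (1.85-fold), and the gene's other probe gave 0.77 ± 0.23. DKD+enarodustat was lower than DKD by −0.29 ± 0.21, which did not pass the test (limma, adjusted p = 0.696). The slides gave −0.80, −0.03 and −0.04 for that difference, so nearly all of it came from slide 1. DKD+enarodustat was higher than sham by 0.60 ± 0.23, and by 0.15 with slide row as a term.

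Gsta4, the alpha-class enzyme specialised for hydroxynonenal, an aldehyde of lipid peroxidation, had groups that overlapped. It averaged −0.97 ± 0.28 in DKD+enarodustat, −0.64 ± 0.58 in DKD and −0.90 ± 0.20 in sham kidneys (SD, n = 9, 9 and 6). The DKD kidneys ranged from −1.53 in kidney 8 to 0.39 in kidney 2, a range that held all 9 DKD+enarodustat and all 6 sham kidneys. DKD+enarodustat minus DKD was −0.33 ± 0.19 (limma, adjusted p = 0.564), with −0.71, 0.12 and −0.39 on the 3 slides. DKD minus sham was 0.26 ± 0.21 and DKD+enarodustat minus sham was −0.07 ± 0.21.

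Of the mu class, Gstm1, a major transferase of mouse tissues, gave nearly equal means in all groups. It averaged 5.66 ± 0.39 in DKD+enarodustat, 5.69 ± 0.29 in DKD and 5.65 ± 0.26 in sham kidneys (SD, n = 9, 9 and 6). The DKD+enarodustat minus DKD difference was −0.03 ± 0.15 (limma, adjusted p = 0.976), its 95% interval ran from −0.34 to 0.27, and the second probe gave 0.02 ± 0.15. Changes up to those bounds, 0.790-fold and 1.21-fold, are therefore not shown to be absent. DKD minus sham was 0.04 ± 0.17. Its sign was not stable, since it reached −0.03 when single arrays were left out.

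Gstm5, the other mu-class member, had lowest, median and highest levels of 4.86, 5.30 and 6.19 in DKD+enarodustat kidneys, 4.96, 5.59 and 6.15 in DKD kidneys, and 4.84, 5.11 and 5.19 in sham kidneys. The sham kidneys kept to a narrow band, and 7 of 9 kidneys in each diabetic group lay above its top. DKD minus sham was 0.48 ± 0.18 and DKD+enarodustat minus sham was 0.40 ± 0.18, with 0.52 ± 0.17 and 0.41 ± 0.17 from the second probe. With slide row as a term, DKD+enarodustat minus sham was −0.0015. DKD+enarodustat minus DKD was −0.08 ± 0.16 (limma, adjusted p = 0.941), and slide 2 gave 0.43 where slides 1 and 3 gave −0.29 and −0.38. The promoters of Gsta3 and Gstm5 hold the antioxidant core, and any part of it in these differences was not tested.

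Gstp1, the pi-class enzyme, which also binds and restrains the stress kinase JNK, was the member with the lowest DKD mean relative to sham. Its lowest, median and highest levels were 2.22, 3.40 and 4.13 in DKD+enarodustat kidneys, 1.90, 3.02 and 4.04 in DKD kidneys, and 2.84, 3.55 and 4.01 in sham kidneys. The 3 groups overlapped. DKD minus sham was −0.53 ± 0.32, and the slides disagreed in sign, with 0.26, −1.07 and −0.78. DKD+enarodustat minus DKD was 0.37 ± 0.29 (limma, adjusted p = 0.736), and 8 of 9 DKD+enarodustat kidneys lay above the DKD mean. Over row 2 alone that difference was 0.01. Its near-identical neighbour Gstp2, which has a probe of its own, gave 0.26 ± 0.25 for DKD+enarodustat minus DKD and −0.48 ± 0.28 for DKD minus sham, and signal from one gene on the other's probe cannot be told apart here.

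The theta-class genes encode enzymes that act on small halogenated compounds and on sulfate esters. Gstt1 averaged 4.38 ± 0.38 in DKD+enarodustat, 3.98 ± 0.65 in DKD and 4.06 ± 0.56 in sham kidneys (SD, n = 9, 9 and 6). Of the DKD+enarodustat kidneys, 8 of 9 lay above the DKD mean, yet the difference of 0.41 ± 0.24 did not pass the test (limma, adjusted p = 0.590), and the slides gave 0.13, 0.88 and 0.22. Over row 2 alone it was 0.03. Gstt2 averaged 3.87 ± 0.26 in DKD+enarodustat, 3.95 ± 0.46 in DKD and 4.00 ± 0.15 in sham kidneys (SD, n = 9, 9 and 6). Its sham kidneys spanned 3.80 to 4.19, while 3 DKD kidneys lay above and 4 below that band. DKD+enarodustat minus DKD was −0.07 ± 0.15 (limma, adjusted p = 0.947).

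Gstk1, the kappa-class enzyme, is also known as a chaperone-like protein that aids the assembly of adiponectin. It was the member with the smallest p between DKD+enarodustat and DKD. Its lowest, median and highest levels were 3.09, 3.62 and 4.08 in DKD+enarodustat kidneys, 3.73, 4.05 and 4.77 in DKD kidneys, and 3.26, 3.72 and 4.86 in sham kidneys. All 9 DKD+enarodustat kidneys lay below the DKD mean and 5 of them below every DKD kidney. The difference was −0.44 ± 0.19 (0.739-fold, 95% interval of the log2 difference −0.82 to −0.05), which did not pass once adjusted over all genes (limma, adjusted p = 0.373). The slides gave −0.53, −0.39 and −0.39, and row 2 alone gave −0.66. DKD minus sham was 0.29 ± 0.21 and DKD+enarodustat minus sham −0.14 ± 0.21, and sham kidney 2 was the highest of all 24.

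Gsto1, the omega-class enzyme, uses a cysteine in place of the usual tyrosine or serine and reduces dehydroascorbate and mixed disulfides. Its lowest, median and highest levels were 2.59, 2.84 and 3.46 in DKD+enarodustat kidneys, 2.25, 2.97 and 4.10 in DKD kidneys, and 1.59, 2.22 and 2.42 in sham kidneys. All 9 DKD+enarodustat kidneys lay above all 6 sham kidneys, as did 8 of 9 DKD kidneys, with DKD kidney 8 the exception. DKD was higher than sham by 0.87 ± 0.21 (1.83-fold) and DKD+enarodustat by 0.81 ± 0.21 (1.76-fold), and the second probe gave 0.90 ± 0.22 and 0.83 ± 0.22. DKD+enarodustat and DKD had nearly the same mean, with a difference of −0.06 ± 0.19 (limma, adjusted p = 0.967, 95% interval −0.44 to 0.33). That difference was 0.08 without DKD kidney 2, so its sign rests on that kidney.

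In order of group means, Gsta2, Gsta3, Gstm5 and Gsto1 ran from DKD at the top through DKD+enarodustat to sham. In each of these the step between the diabetic groups was within the SD of either group, and the step from DKD+enarodustat to sham exceeded the SD of both groups for Gsta2, Gsta3 and Gsto1 but not for Gstm5. Gsta4, Gstm1 and Gstk1 also had DKD at the top, Gstp1 and Gstt2 had sham at the top, and Gstt1 had DKD+enarodustat at the top, and for these 6 every neighbouring step was within the SD of the DKD group.

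Between DKD+enarodustat and DKD, 0 of 10 members passed the limma test, where 0.716% of all tested genes did (127 of 17736, 0.609% higher and 0.107% lower), and at an unadjusted p under 0.05 the count was 1 (Gstk1). No member had groups that did not overlap, against 0.147% of all genes. The members' median difference was −0.08, beside 0.0049 for all tested genes, and 8 of 10 were negative. This comparison shares the DKD arrays with the one that chose the members. In DKD minus sham, 3 of 10 members (Gsta2, Gsta3 and Gsto1) had an adjusted p under 0.05, all higher, beside 11.6% of all genes in either direction and 5.48% higher (6.12% lower), and nothing is read from that count because the comparison chose them. The median difference of the members was 0.28, beside −0.01 for all tested genes. Only Gsta2 had groups that did not overlap there, beside 3.41% of all genes. In DKD+enarodustat minus sham, which shares the sham arrays, 2 of 10 members (Gsta2 and Gsto1) had an adjusted p under 0.05, beside 15.5% of all genes in either direction and 8.76% higher (6.76% lower). Nothing is read from that count either, because those sham arrays had a part in choosing the members. The members' median there was 0.17, beside −0.02 for all genes, and only Gsto1 had groups that did not overlap, beside 4.94% of all genes. The Gsta2 call in this comparison was lost without sham kidney 4, the lowest sham value. It was also lost with slide row as a term, where the difference was 0.80 and Gsto1 lost its call too. All 14 member probes were well above background on all 24 arrays, so the filter on dim probes removed no member.

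**Figure D3:**
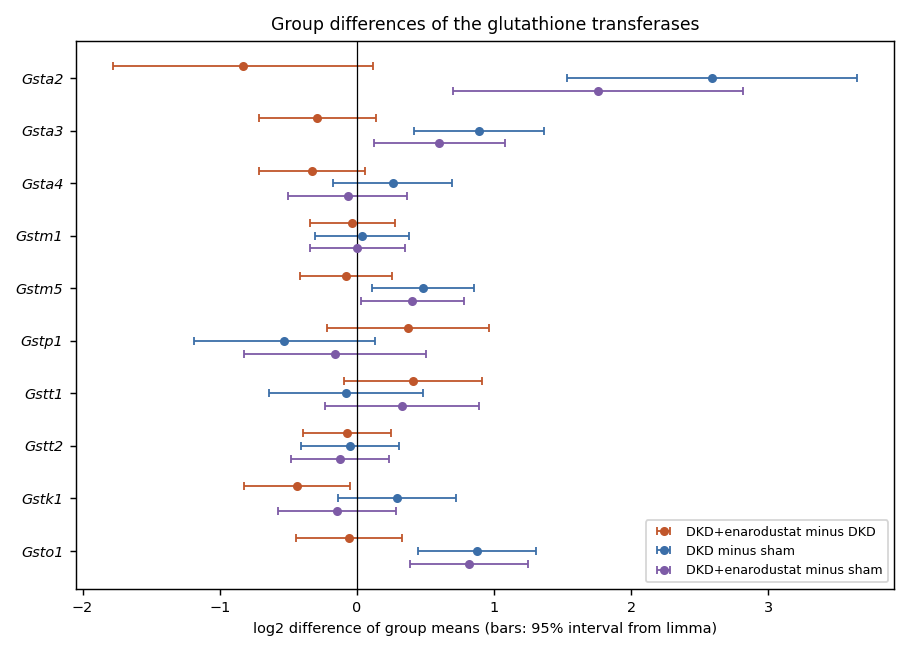
Log2 difference of group means (x axis) for each of the 10 glutathione transferases (y axis) in DKD+enarodustat minus DKD, DKD minus sham and DKD+enarodustat minus sham, with 95% intervals from limma as bars. Gsta2 has the widest intervals and the largest differences from sham, and 9 of the 10 intervals of DKD+enarodustat minus DKD include 0, Gstk1 being the exception before adjustment.

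Some members varied together among kidneys of 1 group, to a degree that differed between groups. Gsta2 went with Gsta3 at r = 0.646 in DKD+enarodustat, 0.790 in DKD and 0.561 in sham kidneys. With Gstt1 it went at 0.152, 0.865 and 0.567, with Gstm5 at 0.087, 0.846 and 0.078, and with Gstp1 at 0.089, 0.338 and −0.665. No typical r over all gene pairs was computed to set beside these. With group means taken off, the closest pairs over the 24 arrays were Gsta3 with Gsta4 (r = 0.836), Gsta4 with Gsto1 (r = 0.83) and Gstm5 with Gstt2 (r = 0.786). Gsta2 went most closely with Gsto1 (r = 0.747), Gsta3 (r = 0.724) and Gsta4 (r = 0.706), and least with Gstp1 (r = 0.126). The values of 1 kidney share 1 array and 1 scaling, and these r values are descriptions only. In DKD, kidney 2 was the highest for 6 of 10 members, although it was the highest of its group for 9.41% of all genes. DKD kidney 8 was the lowest for 5 members and DKD kidney 5 for 4 others, and each was the lowest for 19.5% of all genes. In DKD+enarodustat, kidney 5 was the highest for 6 members and for 30% of all genes, and kidney 7 was the lowest for 6 members and for 22.4% of all genes. The arrays also differed in brightness: the 75th percentile was 388.1 for DKD+enarodustat kidney 7 and 187.4 for DKD+enarodustat kidney 5, the ends of the range, and 229.5 for DKD kidney 2. The part of brightness in these shifts was not tested. Without DKD kidney 8 and DKD+enarodustat kidney 7, an omission chosen after seeing the data, the count of members passed in DKD+enarodustat minus DKD was again 0.

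**Figure D4:**
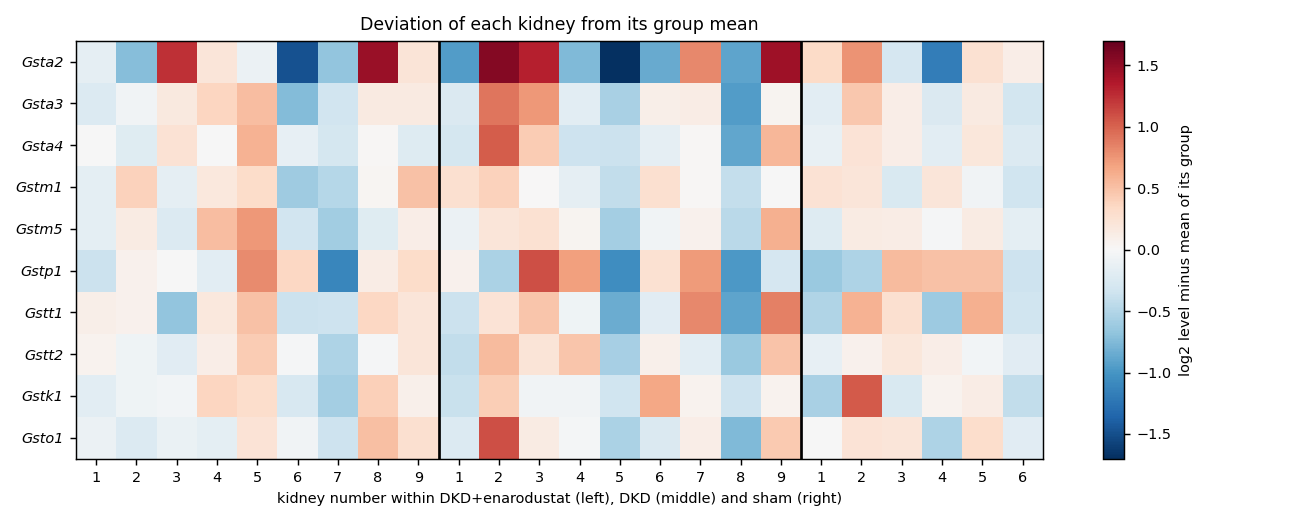
Deviation of each kidney's log2 level from the mean of its group (colour) for the 10 glutathione transferases (rows) in the 9 DKD+enarodustat, 9 DKD and 6 sham kidneys (columns, left to right). DKD kidney 2 is high in most rows, DKD kidneys 5 and 8 and DKD+enarodustat kidney 7 are low in most, and the Gsta2 row has the strongest colours.

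The gene lists from here on were chosen with earlier results of these data known. Their counts and adjusted p are descriptions, and no enrichment is read from them. Of 20 other glutathione transferases of the family that were listed, 19 are on the array and 17 were tested, and 0 passed between DKD+enarodustat and DKD (median 0.04). Of these 17, 1 passed in DKD minus sham, beside 11.6% of all genes. It was Gsto2, the other omega-class gene, which rose by 0.45 ± 0.13 (limma, adjusted p = 0.0293). Of the other mu-class genes none passed. Their DKD minus sham differences were −0.05 ± 0.13 for Gstm2, 0.05 ± 0.17 for Gstm3 and −0.02 ± 0.18 for Gstm4. Gstm6 gave −0.0005 ± 0.17 (0.41 ± 0.28 from its other probe) and Gstm7 gave 0.37 ± 0.29. Of the microsomal family, Mgst1 is given above, and Mgst3 had a DKD minus sham difference of 0.40 ± 0.26 (limma, adjusted p = 0.373). Hpgds, the sigma-class prostaglandin D synthase, and Gstt4 were too dim to be tested.

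Of the genes of glutathione synthesis, recycling and breakdown, 4 of 9 tested passed in DKD minus sham, beside 11.6% of all genes. No enrichment is read from that count, since the list was chosen with earlier results of these data known. Slc3a2, the heavy chain of the cystine importer, was the 1 that rose (0.59 ± 0.08, limma, adjusted p = 9.54e-05), but its dimmer probe gave −0.48 ± 0.24. Slc7a11, the other chain of that importer, was well above background on no array and was not tested. Nothing about cystine import is therefore read from Slc3a2. Those that fell were Ggct, which degrades gamma-glutamyl dipeptides to oxoproline (−1.14 ± 0.17, limma, adjusted p = 0.000178), Chac1, which degrades glutathione itself (−0.79 ± 0.23, limma, adjusted p = 0.0236), and Gsr, which regenerates reduced glutathione (−0.33 ± 0.08, limma, adjusted p = 0.00607). Between DKD+enarodustat and DKD 0 of 9 passed. In DKD+enarodustat minus sham Slc3a2 rose by 0.49 ± 0.08 (−0.61 ± 0.24 from its dimmer probe), while Ggct (−0.56 ± 0.17) and Gsr (−0.25 ± 0.08) fell. Of 14 glutathione-using peroxidases, glutaredoxins and glyoxalases, 0 passed in DKD+enarodustat minus DKD and 0 in DKD minus sham, beside 0.716% and 11.6% of all genes. Gpx7, a peroxidase of the endoplasmic reticulum, rose in DKD+enarodustat minus sham (0.58 ± 0.18, limma, adjusted p = 0.0304).

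Downstream of the transferases, 5 of 18 tested genes of conjugate export and mercapturate formation passed in DKD minus sham, beside 11.6% of all genes. Earlier results were known when this list was chosen too, so the count is a description. Those that fell included Ggt1, the gamma-glutamyl transferase of the brush border (−0.89 ± 0.13, limma, adjusted p = 0.000162), and Nat8, the acetyltransferase that forms mercapturates (−0.89 ± 0.16, limma, adjusted p = 0.000644). Acy1 and Acy3, aminoacylases that deacetylate N-acetyl amino acids and mercapturates, fell by 0.81 and 0.80 on the log2 scale. Abcc4, an efflux pump, rose by 0.87 ± 0.18 (limma, adjusted p = 0.00242). The summed linear level of this list ran from 438.6 to 667.9 in DKD+enarodustat kidneys, 341.5 to 640 in DKD kidneys and 659.3 to 904.5 in sham kidneys, a sum in which the brightest probes weigh most. Between DKD+enarodustat and DKD 0 of 18 passed. In DKD+enarodustat minus sham 3 rose and 5 fell, beside 8.76% of all genes higher and 6.76% lower. Nat8 (−0.93 ± 0.16) and Acy1 (−0.70 ± 0.15) were among those that fell and Abcc4 (0.63 ± 0.18) among those that rose.

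Of 20 other detoxification genes that respond to NRF2, 4 rose and 3 fell in DKD minus sham, beside 5.48% of all genes higher and 6.12% lower. These counts are again a description, for a list chosen with earlier results known. The rises were Ephx1, the microsomal epoxide hydrolase (1.07 ± 0.21, limma, adjusted p = 0.00148), Akr1c13, an aldo-keto reductase (1.04 ± 0.32, limma, adjusted p = 0.0382), Ugt1a6a, a glucuronosyltransferase (0.87 ± 0.20, limma, adjusted p = 0.00583), and Nfe2l2, which encodes NRF2 itself (0.32 ± 0.10, limma, adjusted p = 0.0276). The carboxylesterase Ces1g fell furthest (−3.50 ± 0.51, limma, adjusted p = 0.000121), and Ces1d and the aldo-keto reductase Akr1b8 fell by 0.71 and 0.68 on the log2 scale. The list thus went both ways, with a median of 0.04. Between DKD+enarodustat and DKD 0 of 20 passed, with a median of 0.06. In DKD+enarodustat minus sham 2 rose and 3 fell, beside 8.76% of all genes higher and 6.76% lower. Over the members and the 5 related groups together, 0 genes passed in DKD+enarodustat minus DKD, beside 0.716% of all genes.

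**Figure D5:**
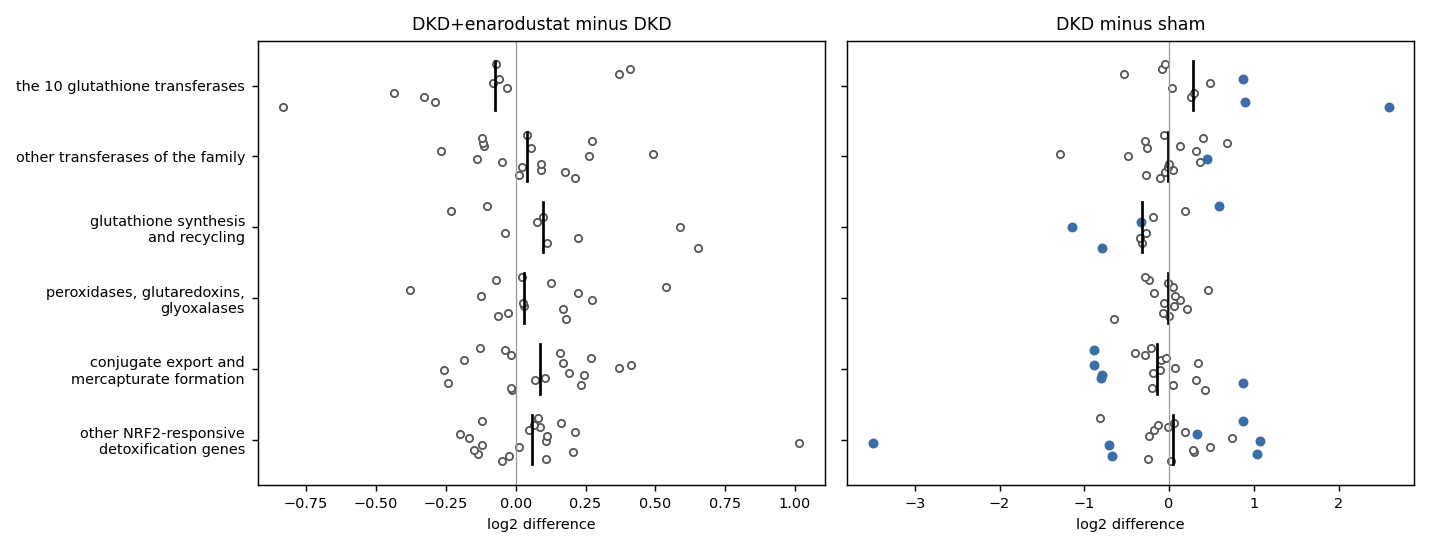
Log2 differences (x axes) of the 10 glutathione transferases and of the tested genes in 5 related groups (y axis) in DKD+enarodustat minus DKD (left) and DKD minus sham (right), 1 circle per gene. Filled circles had an adjusted p under 0.05 in limma and black bars are group medians. No circle is filled on the left, and on the right filled circles lie on both sides of 0 in 3 of the groups.

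Cell type markers moved between the groups as well. In DKD minus sham, where 6.12% of all genes were called lower and 5.48% higher, 3 of 13 proximal tubule markers fell and 1 rose. Among those that fell was Slc22a7 (−1.87 ± 0.43), a urate and organic anion carrier, and the 1 that rose was the lactate carrier Slc5a12 (0.55 ± 0.13). Their summed linear level ran from 1381 to 1977 in DKD+enarodustat kidneys, 1505 to 2018 in DKD kidneys and 1862 to 2183 in sham kidneys. In the same comparison 4 of 7 collecting duct markers rose, 3 of 9 macrophage and neutrophil markers fell and 3 of 9 lymphocyte markers fell. Of the macrophage and neutrophil markers, 7 had negative and 2 positive differences, with a median of −0.21. The largest falls were in S100a9 (−1.07), S100a8 (−1.03) and Csf1r (−0.89), and the other Csf1r probe gave −0.12. Between DKD+enarodustat and DKD, 1 of 5 red cell markers passed the test, beside 0.609% of all genes higher and 0.107% lower. It was Hbb-bt, a beta globin, which rose (1.11 ± 0.26, limma, adjusted p = 0.0422). Red cell values were named after being seen, so this call is a description. Of the 5 differences 4 were positive and 1 negative, with a median of 0.98. Summed red cell levels ran from 256.3 to 850.9 in DKD+enarodustat kidneys and from 148.1 to 473.6 in DKD kidneys. Liver markers had summed levels of 3.78 to 7.95 in DKD+enarodustat, 3.15 to 6.22 in DKD and 2.56 to 6.12 in sham kidneys, and 2 of 6 were above background on no array. The part of these shifts in the values of the glutathione transferases was not tested.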

How the data were processed

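Kidney RNA of 24 mice (9 DKD+enarodustat, 9 DKD, 6 sham) was labelled with Cy3 and measured on 1-colour Agilent arrays, per the labels. The deposited scanner files hold spot intensity values, background-subtracted and detrended by Feature Extraction 12.1.1.1 per the file headers (the submitters' processing notes name 11.5.1.1 and limma). The authors' deposited value table is on a log2 scale, found by comparison: normexp and quantile normalization of the median spot signals matched all but 630 of its 753816 values within 0.05. Its centring is not per gene (column medians 7.543 to 7.559).

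Here log2 of the processed intensity minus the 75th percentile of the array was used. Spots of a probe were averaged without control spots, and 21 outlier-marked values of tested genes dropped (0 of member probes). Probes were named by accession through RefSeq (GRCm38.p6; 32994 of 56605 named), and the brightest probe stood for a gene. A gene entered the test (17736 did) where 6 or more of the 24 arrays had it well above background, in 1 limma fit with group as the only term (R 4.3.3, limma 3.58.1, with version 1.17.8 of data.table), checked on simulated data. Two-sided p-values were adjusted by Benjamini-Hochberg over all tested genes. Promoter motifs and alignments used Biopython 1.88.

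The members and gene lists were chosen with earlier results of these data known. All members are named, up to 4 passing genes per list and comparison with the largest change, and the 5 genes most like Gsta2, except for a result that is not reported here. Values of other family members, red cell and liver markers and Mgst3 were named after being seen. The series text counts mice per group, so replicates were taken as separate mice. Replicate numbers of the labels did not pair samples. Alternatives covered background correction, normalization, the deposited table, filters, probe choice, slides, slide row, the replicate block and leaving out each array.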

Additional observations from a re-analysis of the deposited data

How the results depend on the processing

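No member passed in DKD+enarodustat minus DKD under any of 15 other settings or with any of the 24 arrays left out. In DKD minus sham, which chose the members, the number with an adjusted p under 0.05 ran from 2 to 4 over the other settings, and nothing is read from it. In DKD+enarodustat minus sham the Gsta2 call was lost under 3 settings (slide row as a term, the replicate block, without sham kidney 4), and Gsta3 was called under 6. That comparison shares the sham arrays, and nothing is read from these calls.

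Genes passed in DKD+enarodustat minus DKD numbered 127. They were 83 with no filter on dim probes, 47 with only the arrays of the groups compared, 20 with slide row as a term, and 79 when scaled to the median of probes above background on all arrays, a setting added after seeing the data. With the replicate block the count was 66, and it called 0 members (only 4 of 9 same-numbered pairs correlated above 0.1). Leaving out single arrays gave 71 to 128, with 71 without DKD+enarodustat kidney 8, 82 without DKD kidney 7 or DKD+enarodustat kidney 4, and 84 without DKD+enarodustat kidney 5 or 6. In DKD+enarodustat minus sham 2753 became 890 with slide row as a term. All DKD+enarodustat arrays lay in row 2 and all sham arrays in row 1, so the row term rests on the DKD arrays. Group and slide row cannot be told apart by the arrays of that comparison alone. The split of higher against lower calls there was 1554 to 1199, against 1339 to 1493 with normexp and quantile normalization, 1245 to 1375 with the deposited table and 1233 to 1395 with the median scaling, and in DKD minus sham 972 to 1085 against 722 to 1152 with the median scaling. Member differences that turned sign with a single array left out were Gstm1 (−0.0948 to 0.0435) and Gsto1 (−0.153 to 0.0776), in DKD+enarodustat minus DKD. In DKD minus sham they were Gstm1 (−0.033 to 0.0876), Gstt1 (−0.205 to 0.0406) and Gstt2 (−0.118 to 0.0271), and in DKD+enarodustat minus sham Gstm1 (−0.0654 to 0.0795) and Gstk1 (−0.254 to 0.0667). The cause was not tested. Signal over background limited no member, since every probe was well above it on every array.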
